A study of Mus musculus with 6 samples.

Results

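The vascular endothelial growth factor (VEGF) axis was followed through 9 genes of the deposited table of 43432 genes, chosen by symbol: the ligand genes Vegfa, Vegfb, Vegfc and Pgf, the receptor and co-receptor genes Flt1, Kdr, Nrp1 and Nrp2, and Angptl4, which encodes a secreted regulator of lipoprotein lipase and of vessels. All 9 were found, each on a single row, and all 9 passed the filter on low values, a mean of 1 normalized count at either age. The cells were macrophages of the mammary gland, taken from MMTV-PyMT females on an FVB/N background, and 3 libraries of mice aged 8 weeks were compared with 3 of mice aged 11 weeks. The transgene of this model places the middle T oncogene of polyomavirus under the MMTV promoter, which is active in mammary epithelium. Mice of both ages carry it, so no gland without it enters the comparison. The sort kept live cells positive for CD45, MHC class II and CD14. Sample titles carry "an" with a number within each age, which may stand for animals but is not spelled out, so the p-values rest on differences among libraries that may be technical in part or in full.

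VEGF ligands are secreted dimers that drive the growth and permeability of vessels. VEGFA acts mainly through the receptor tyrosine kinase encoded by Kdr. The kinase encoded by Flt1 binds VEGFA, VEGFB and placental growth factor, the product of Pgf, and also exists as a soluble form that traps ligand. VEGFC acts mainly on lymphatic vessels, and the neuropilins Nrp1 and Nrp2 bind VEGF ligands and class 3 semaphorins without a kinase of their own. Macrophages of tumours are a known source of VEGFA, whose gene is induced by low oxygen through hypoxia-inducible factors. Angptl4 is induced both by low oxygen and by the fatty acid sensors of the PPAR family.

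At 11 weeks Vegfa, Nrp1 and Flt1 were higher, and Angptl4 and Pgf lower, in every library than in any library of 8 weeks. The remaining 4 genes overlapped between the ages. Separation of this kind held for 5 of the 9 genes, against 11.9% of all 21675 genes tested. By direction, 3 were apart and higher, where 6.81% of all genes were, and 2 apart and lower, where 5.12% were. In the limma test over all genes 0 of the 9 passed an adjusted p of 0.05, with 0.0507% of all genes called, 0.0369% higher and 0.0138% lower. At an unadjusted p of 0.05, 4 of the 9 passed in limma, against 8.03% of all genes. On reads recovered from the table, the edgeR quasi-likelihood test called 0 of the 9 (background 0.0646%, with 3 of the 9 at an unadjusted p of 0.05). Likewise limma-voom called 0 (background 0.12%, with 4 of the 9 at an unadjusted p of 0.05). DESeq2 called 1, Angptl4, at a background of 2.63% of genes. In the authors' deposited table Angptl4 was the 1 gene among the 7 of them with a value there whose adjusted p was under 0.05. Of all genes with such a value 1.91% passed, and 0.78% passed with a lower level.

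Recovered depth was 38784429 to 75004873 reads per library, and mitochondrially encoded genes took 38.5% to 56.7% of the normalized counts. All 10 macrophage markers were detected, with Lyz2, Mrc1 and Csf1r highest, at 487774, 96541 and 62856 normalized counts on average. Of these 10, 4 were higher and 1 lower in every 11-week library, beside 6.81% and 5.12% of all genes. Mrc1 was at 86738 ± 6034 and 106343 ± 5126, Csf1r at 68658 ± 3684 and 57054 ± 2478, and Cd14, a gene of the sort gate chosen after its values were seen, at 21806 ± 2033 and 33730 ± 3977 (SD, n = 3). In limma 0 of the 10 passed, with 4 at an unadjusted p of 0.05, beside 8.03% of all genes. EdgeR and voom called 0, and DESeq2 called 1, Cd14, beside 2.63% of all genes. Markers of other cells were present below the levels of Lyz2, Mrc1 and Csf1r. The epithelial marker Csn3, however, averaged 16580 normalized counts, more than several of the macrophage markers. Several lists summed higher in every 11-week library, as Vegfa, Nrp1 and Flt1 were. Mammary epithelial markers summed to 7793 to 11462 normalized counts at 8 weeks and 24271 to 46638 at 11 weeks, with 13 of 14 positive and Csn3 past the limma test, led by Csn3, Csn2 and Cdh1. This sum was mostly Csn3 and Csn2, the latter at 3597 on average. Of the 14 epithelial markers, 4 lay apart and higher and 0 apart and lower, beside 6.81% and 5.12% of all genes. Fibroblast and pericyte markers summed to 974 to 1873 and then 3304 to 4053, with 10 of 10 positive, led by Rgs5, Col3a1 and Col1a1. Neutrophil markers summed to 1714 to 4307 and then 4472 to 6556, with 7 of 8 tested positive, led by Csf3r, S100a9 and Mmp8. None of these epithelial, fibroblast and neutrophil markers was at 0 in every library. The neutrophil markers Ly6g and Camp, however, did not exceed 0.9 and 2.8 normalized counts and were below the filter. Csf3r, the highest neutrophil marker, was at 2424 ± 950 and 2490 ± 110 (SD, n = 3), with overlap. The part of these cells in the values of the 9 genes was not tested, and in bulk samples more or fewer cells of a type cannot be told apart from more or less RNA per cell. Lists whose sums overlapped between the ages were those of adipocytes (400 to 866 over both ages, led by Lipe, Plin4 and Cfd), of T cells (2918 to 4476, led by Cd4, Ikzf2 and Il2ra) and of plasmacytoid dendritic cells (9830 to 12888, led by Tcf4, Irf8 and Siglech). The plasmacytoid dendritic cell sum was mostly Tcf4 and Irf8, at 7437 and 2743 on average. Siglech was lower in every 11-week library, at 302.3, 478 and 307.5 and then 126, 102.8 and 252 (limma adjusted p = 0.603). Of the 7 genes of that list 2 were positive and 5 negative. The T cell sum was mostly Cd4, which macrophages also express. Of the 9 T cell genes 3 had an unadjusted p under 0.05 in limma, all higher, beside 8.03% of all genes in either direction. Of these 3, 2 lay apart between the ages, where 6.81% of all genes were apart and higher. Cd3e, Trac and Cd3g were chosen after their values were seen. Cd3e had 16, 117.8 and 5.1 and then 170.1, 345.8 and 177.6. Trac had 11.6, 1.4 and 14.5 and then 47.8, 37.3 and 75.2. Cd3g went the other way, at 85.6, 33.2 and 63.2 and then 2.8, 53.4 and 9.1, with overlap. Of the 9 T cell genes 6 had a positive log2 fold change and 3 a negative one. Lymphatic endothelial markers summed to 15358 to 29893 and 32638 to 50014, nearly all of it Lyve1, which resident macrophages also express, beside Pdpn at 1001 and Prox1 at 82.9 on average, with Ccl21a at 0 in every library.

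The promoters of Vegfa, Nrp1 and Flt1 are shown because these 3 genes were the ones higher in every 11-week library. Each sequence is the 250 bases before the annotated start in RefSeq (build GRCm38.p6), 5′ to 3′ on the gene's strand. Capitals mark matches on either strand to the core of the hypoxia response element (ACGTG or GCGTG), the GC box (GGGCGG), the cAMP response element (TGACGTCA), the AP-1 site (TGANTCA) or a TATA box (TATAAA).
Vegfa, chr17:46032378-46032627, minus strand: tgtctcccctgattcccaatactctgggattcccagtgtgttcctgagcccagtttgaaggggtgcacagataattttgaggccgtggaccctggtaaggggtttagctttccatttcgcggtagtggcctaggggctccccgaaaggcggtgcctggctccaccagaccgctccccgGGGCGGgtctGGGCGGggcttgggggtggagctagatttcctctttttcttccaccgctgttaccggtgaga
Nrp1, chr8:128358823-128359072, plus strand: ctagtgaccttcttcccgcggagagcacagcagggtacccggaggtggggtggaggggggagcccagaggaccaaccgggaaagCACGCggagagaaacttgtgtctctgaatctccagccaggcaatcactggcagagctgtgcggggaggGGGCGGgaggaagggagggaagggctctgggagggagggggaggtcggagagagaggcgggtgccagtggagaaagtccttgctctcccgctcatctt
Flt1, chr5:147726012-147726261, minus strand: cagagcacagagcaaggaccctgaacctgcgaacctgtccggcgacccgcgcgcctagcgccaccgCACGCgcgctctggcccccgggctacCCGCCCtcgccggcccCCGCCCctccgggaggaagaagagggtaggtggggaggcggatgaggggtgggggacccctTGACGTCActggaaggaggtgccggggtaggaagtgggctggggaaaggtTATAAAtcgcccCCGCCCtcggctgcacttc

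The Vegfa window held GC boxes at 72 and 62 bases before the start and no other motif searched. The Nrp1 window held GCGTG, read on the other strand, 166 bases before the start and a GC box 98 bases before it. In the Flt1 window lay GCGTG on the other strand, 3 GC boxes, a cAMP response element 81 bases before the start and a TATA box 31 bases before it. Of 32817 mouse promoter windows of this length, 32.7% held GGGCGG, 28.1% GCGTG, 16.6% ACGTG, 12.4% TATAAA, 6.75% TGANTCA and 1.55% TGACGTCA. Of the motifs searched, only the GC box was in all 3 windows. RefSeq gives Vegfa a further start at 46025163, inside the gene, and the 250 bases before it held both cores of the hypoxia response element and a GC box. A match here is a string of letters and not a shown binding site. RefSeq windows were matched by symbol for 8 of the 9 genes, all but Angptl4.

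Vegfa (ENSMUSG00000023951, GRCm38 chromosome 17, 46016993 to 46032377, minus strand) had 1634.4, 2333 and 1069.3 normalized counts in 8-week replicates 1, 2 and 3. In 11-week replicates 1, 2 and 3 it had 3914.2, 2942.6 and 2971.9. Normalized counts are reads divided by 1 size factor per library. All 3 libraries of 11 weeks were above the highest of 8 weeks, while the 8-week libraries themselves spread more than 2-fold, with replicate 3 lowest. The means were 1679 ± 633 and 3276 ± 553 (SD, n = 3 per age), a ratio of 1.95. On the log2(value + 1) scale, on which all fold changes below are given, the difference was 1.02 ± 0.29 (SE; limma adjusted p = 0.31). The authors' deposited table gave it an adjusted p of 0.098.

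Vegfb (ENSMUSG00000024962, chromosome 19, 6982473 to 6987651, minus strand), a ligand of Flt1 alone among the kinases, had 297.8, 220.3 and 223.8 normalized counts at 8 weeks. At 11 weeks it had 168.3, 513.1 and 276.4. Replicate 1 of 11 weeks was the lowest of the 6 libraries and replicate 2 the highest, so the ages overlapped. The log2 fold change was 0.23 ± 0.54 (SE; limma adjusted p = 0.919), and it was -0.18 without 11-week replicate 2.

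Pgf (ENSMUSG00000004791, chromosome 12, 85166639 to 85177296, minus strand) was low in all libraries, at 31.2, 38.8 and 36.7 normalized counts in the 8-week libraries, against 24.8, 8.1 and 29.9 in those of 11 weeks. The ages did not overlap, but the gap between them, from 29.9 to 31.2, was small beside the spread within 11 weeks. Its log2 fold change was -0.91 ± 1.13 (SE; limma adjusted p = 0.839), and -0.37 without 11-week replicate 2, the library with 8 reads of the gene.

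Vegfc (ENSMUSG00000031520, chromosome 8, 54077532 to 54186454, plus strand), the lymphatic ligand, had 3 reads in 8-week replicate 1, 4 reads in 11-week replicate 2 and 0 in the other 4 libraries. A count of 0 allows up to 3 reads, or 2.56 to 4.16 normalized counts depending on the library, for counting error only. A difference in Vegfc within these few counts was therefore not detectable at this depth. The gene was tested because its 11-week mean of 1.33 normalized counts lay above the minimum of 1.

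**Figure D1:**
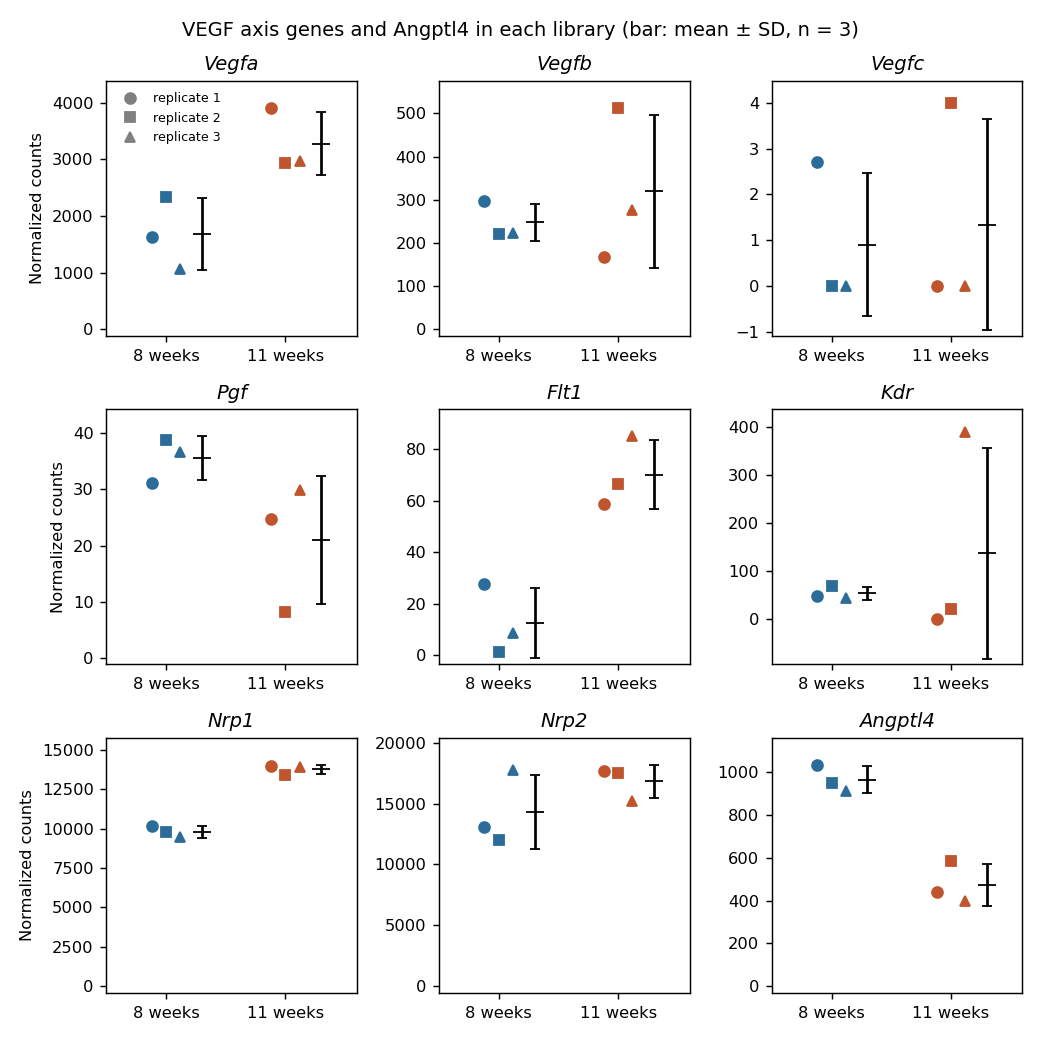
Normalized counts (vertical axis, 1 scale per gene, each including 0) of the 9 genes in each library by age; marker shapes are replicate numbers, which do not pair the ages, and bars are mean ± SD (n = 3). Vegfa, Nrp1 and Flt1 lie higher and Angptl4 and Pgf lower in all 3 libraries of 11 weeks, and Kdr is spread from 0 to 388.8 at 11 weeks.

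Among the receptors, Nrp1 (ENSMUSG00000025810, chromosome 8, 128359073 to 128505462, plus strand) varied little within an age. It had 10200.3, 9787.7 and 9451.4 normalized counts in the 8-week libraries, against 13961.4, 13399.5 and 13910.6 in those of 11 weeks. On the deposited scaling the ages were clearly apart, at 9813 ± 375 and 13757 ± 311 (SD, n = 3), a ratio of 1.4. The log2 fold change was 0.49 ± 0.16 (SE; limma adjusted p = 0.421), and the authors' deposited table gave an adjusted p of 0.054. With the libraries scaled to their totals the log2 fold change was 0.40. Its unadjusted limma p was then 0.12, against 0.00863 on the deposited scaling. Over all 18 alternatives the log2 fold change ranged from 0.40 to 0.54.

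Nrp2 (ENSMUSG00000025969, chromosome 1, 62703285 to 62818695, plus strand) had 13107, 11994.6 and 17717.4 normalized counts in the 8-week libraries, against 17688.1, 17542.7 and 15230.3 in those of 11 weeks. The highest of all 6 values was that of 8-week replicate 3, so the ages overlapped, and the log2 fold change was 0.25 ± 0.18 (SE; limma adjusted p = 0.782). The gene overlaps the antisense gene Gm29083 (up to 493.2 normalized counts) and the same-strand gene RP23-149A5.4 (up to 682.5). Since the sources used here do not give the strand setting of the counting, reads of these genes and of Nrp2 cannot be told apart where they overlap.

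Flt1 (ENSMUSG00000029648, chromosome 5, 147561604 to 147726011, minus strand) had 27.6, 1.4 and 8.5 normalized counts in the 8-week libraries, against 58.8, 66.5 and 85.2 in those of 11 weeks. These are 31, 1 and 10 reads against 64, 66 and 94. The ages did not overlap, at means of 12.5 ± 13.6 and 70.2 ± 13.6 (SD, n = 3). The log2 fold change was 3.02 ± 1.23 (SE; limma adjusted p = 0.551). Without 8-week replicate 2, the library with 1 read, it was 2.09, and with a pseudocount of 8 it was 2.13. Each value is 1 total per gene, so membrane-bound and soluble forms of the receptor are not separated.

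Kdr (ENSMUSG00000062960, chromosome 5, 75932827 to 75978458, minus strand) had 47.3, 67.9 and 44.4 normalized counts at 8 weeks. At 11 weeks it had 0, 20.2 and 388.8. Replicate 3 of 11 weeks held 429 reads, while replicate 1 held 0 of 62318990, which allows up to 2.76 normalized counts. The mean was higher at 11 weeks (53.2 ± 12.8 and 136 ± 219, SD, n = 3), whereas the mean of logs was lower, and the log2 fold change was -1.40 ± 1.63 (SE; limma adjusted p = 0.833). The sign turned to 0.77 without 11-week replicate 1, and to 1.34 with edgeR and 1.36 with DESeq2. No direction can be given for Kdr.

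Kdr and Flt1 are also genes of endothelial cells, and the genes of that cell type were checked beside them. The list of 18 endothelial markers summed to 1255 to 1975 normalized counts at 8 weeks and 1280 to 1796 at 11 weeks, so the ages overlapped. The sum rests on few genes: Eng alone was at 657 on average. Ptprb gave 668.8 of the highest sum, that of 8-week replicate 3. The highest of them were Eng, at 695 ± 34.5 and 620 ± 273, Pecam1, at 204 ± 74.6 and 256 ± 160, and Cdh5 (SD, n = 3). Of the 18, 11 had a positive log2 fold change, with a median of 0.15 beside 0.052 over all genes tested, and 0 passed in limma. At an unadjusted p of 0.05, which 8.03% of all genes passed, 2 of them did, in opposite directions, Cdh5 at a log2 fold change of 3.14 and Tek at -3.49. Tek had 29.4, 13.9 and 30.7 normalized counts and then 0, 0 and 9.1, and was thus lower in every 11-week library. The counts called by edgeR and voom were also 0, and DESeq2 called 1, Cdh5. In 11-week replicate 3, where Kdr was highest, 0 of the 18 markers were at 0, while in the other 5 libraries 4 to 8 were. Replicate 3 of 11 weeks also had the most genes with a read, 19722, against 17385 to 18936 in the others. The tight junction gene Cldn5 was detected in 11-week replicate 3 alone, at 31.7. Cdh5, which encodes the endothelial cadherin, had 70.4, 26.3 and 14.5 normalized counts in the 8-week libraries, against 569.2, 123 and 290 in those of 11 weeks. It was thus highest in 11-week replicate 1, the library without Kdr reads, and like Flt1 it did not overlap between the ages. The part of endothelial RNA in the values of Kdr and Flt1 was not tested.

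**Figure D2:**
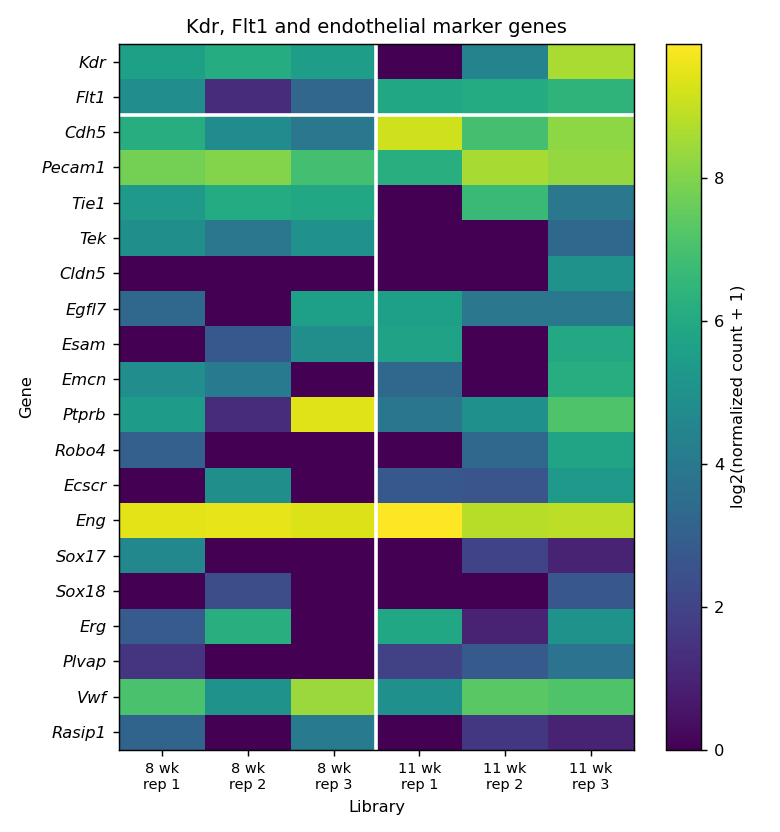
Colour gives log2(normalized count + 1) of Kdr and Flt1 (top rows) and of 18 endothelial marker genes (rows) in each library (columns; white lines part the receptors from the markers and 8 from 11 weeks). The column of 11-week replicate 3 has Kdr at 388.8 normalized counts and no marker at 0, while Cdh5 is highest in 11-week replicate 1, where Kdr is 0.

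Angptl4 (ENSMUSG00000002289, chromosome 17, 33773750 to 33781575, minus strand) had 1035.2, 947.6 and 913 normalized counts in 8-week replicates 1, 2 and 3. At 11 weeks it had 438.6, 582.7 and 398.8. The 8-week libraries lay close together, and every 11-week library was below the lowest of them. The means were 965 ± 63 and 473 ± 96.8 (SD, n = 3), a ratio of 0.49. The log2 fold change was -1.04 ± 0.35 (SE; limma adjusted p = 0.422, or 0.0178 to 0.626 over the alternatives), with values of -1.20 to -0.93 when 1 library was left out. The authors' deposited table gave a log2 fold change of -0.927 and an adjusted p of 0.017.

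Vegfa and Angptl4, both inducible by low oxygen, thus lay on opposite sides of their 8-week ranges. Their ratio within a library does not depend on how libraries are scaled. It was 1.58, 2.46 and 1.17 at 8 weeks and 8.92, 5.05 and 7.45 at 11 weeks. All 3 ratios of 11 weeks were above those of 8 weeks, with a difference of 2.07 on the log2 scale. This ratio was chosen after the values were seen and is given without a test.

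**Figure D3:**
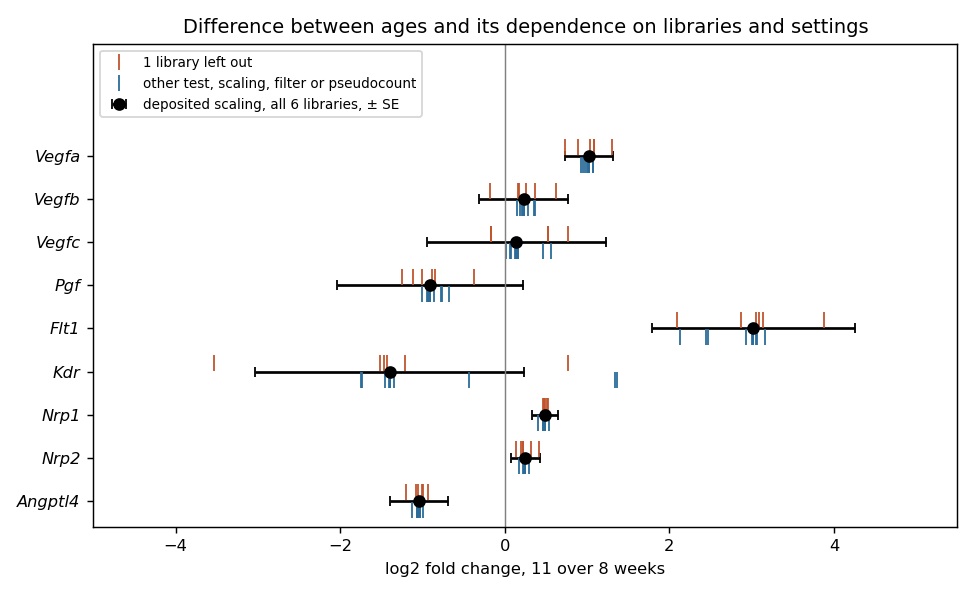
Log2 fold change of 11 over 8 weeks (horizontal axis) for each gene: black points with bars are the limma estimate ± SE from all 6 libraries, red ticks leave out 1 library, and blue ticks use another test, scaling, filter, pseudocount or the replicate block. Vegfa, Nrp1, Nrp2 and Flt1 stay above 0 and Angptl4 and Pgf below 0 under all 18 alternatives, while Kdr, Vegfb and Vegfc take both signs.

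Levels of different genes were compared per kilobase of merged exons (GENCODE M21, GRCm38). On that scale the neuropilins stood highest, with Nrp2 at 1205 ± 256 and 1420 ± 116 normalized counts per kb at 8 and 11 weeks and Nrp1 at 1003 ± 38.3 and 1406 ± 31.8 (SD, n = 3). The 2 overlapped at both ages, and their order rests on the length used. Merged exons span 9785 bases for Nrp1 and 11842 for Nrp2, but their longest transcripts span 3645 and 6723. By longest transcript Nrp1 would stand above Nrp2 on average at both ages. Vegfa came next at 392 ± 148 and 765 ± 129 (SD, n = 3), below both neuropilins in every library. At 8 weeks Angptl4 followed at 273 ± 17.8 and Vegfb at 154 ± 27.3 normalized counts per kb. At 11 weeks the order of these was turned, at 134 ± 27.3 for Angptl4 and 199 ± 110 for Vegfb (SD, n = 3), but their values overlapped there. Kdr, Pgf, Flt1 and Vegfc lay far lower, at 15.1 normalized counts per kb or less on average at either age. In terms of rank, the mean per kb of Nrp2, Nrp1 and Vegfa exceeded 96.2%, 95.9% and 90.8% of the genes tested, and those of Kdr, Pgf and Flt1 exceeded 31.5%, 30.5% and 16.9%. Transcripts of the neuropilins were thus among the more abundant in these libraries, and those of the VEGF receptor kinases among the scarcer.

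**Figure D4:**
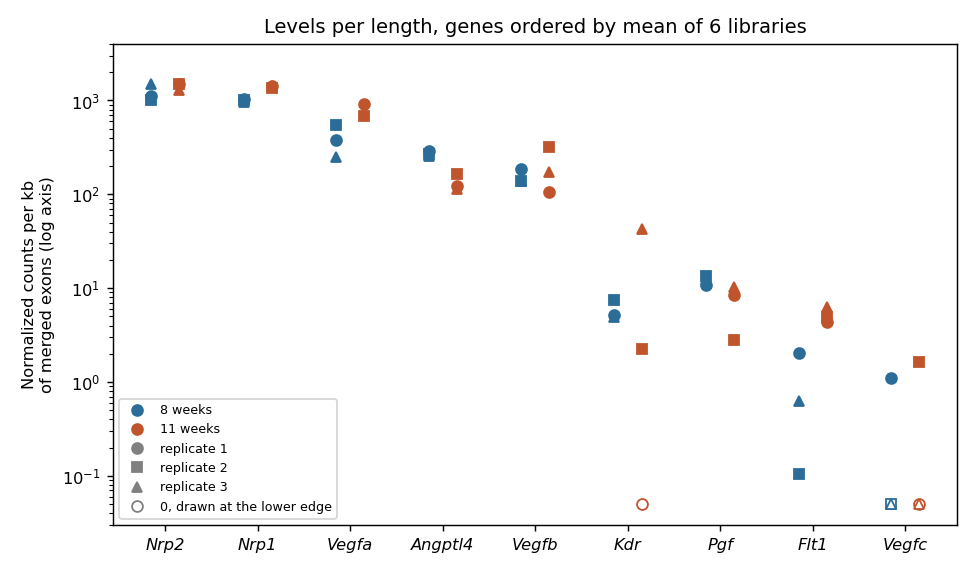
Normalized counts per kb of merged exons (vertical log axis) of each gene in the 3 libraries of 8 weeks (blue) and of 11 weeks (red), with marker shapes for replicates and open markers for values of 0. Nrp2, Nrp1 and Vegfa lie between 250 and 1496, and the kinase receptors Kdr and Flt1 at 43.1 or below.

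Within the 4 ligands, Vegfa made up 65.9%, 78.3% and 62.1% of the summed level per kb at 8 weeks and 89%, 67.9% and 79.2% at 11 weeks. Vegfb made up most of the rest, at 32.1%, 19.7% and 34.7% and then 10.2%, 31.6% and 19.7%. These shares overlapped between the ages. The share of Pgf did not, at 1.86% to 3.15% and then 0.276% to 1.18% (exact permutation p = 0.1, two-sided, the smallest that 3 against 3 libraries allow). Within the 4 receptors, Nrp1 held 45.7% ± 5.7 and 49.4% ± 1.9 and Nrp2 54% ± 5.8 and 49.9% ± 2.8 (SD, n = 3). Which of these 2 shares is larger rests on the length used, as above. Flt1 held 0.00513% to 0.0948% at 8 weeks and 0.149% to 0.229% at 11 weeks (exact permutation p = 0.1, two-sided). Of 8 shares compared, none had an adjusted p under 0.4, and the design could not have reached 0.05.

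The genes whose pattern across the 6 libraries was most like that of Vegfa, out of 9366 whose mean normalized count reached 100 at both ages, were Itga5, Eif3b and Il1rn. Their Pearson correlations with Vegfa on the log2 scale were 0.9956, 0.9949 and 0.9840. Itga5, which encodes the alpha chain of the fibronectin receptor, had 4204.1, 5137 and 3235.3 normalized counts in the 8-week libraries, against 6336.1, 5617 and 5640.2 in those of 11 weeks. It shared with Vegfa the order of the libraries at 8 weeks, with replicate 2 highest and replicate 3 lowest. For Angptl4 the genes were Atp8b4, Slc30a9 and Exosc10, with correlations of 0.9854, 0.9850 and 0.9844. Over 6 libraries, with so many genes searched, such values are a description only.

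Around the 9 genes, 10 lists of related pathway genes held 188 distinct genes, of which 185 were tested. In limma 0 passed over all genes, with a smallest adjusted p of 0.157. With edgeR and voom, too, 0 passed, and DESeq2 called 7 of 170 with an adjusted p, beside 2.63% of all genes. These were Hilpda, Pf4, Sparc and Ccn2 as higher and Plxna4, Cxcl12 and Mmp9 as lower, Mmp9 being outside the naming rule. At an unadjusted p of 0.05, 20 were higher and 8 lower, or 15.1% of them, against 8.03% of all genes. Their median log2 fold change was 0.20, and that of the 9 genes 0.23, beside 0.052 over all genes tested.

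Of 30 other genes induced by low oxygen, 21 had a positive log2 fold change, with a median of 0.26. In 6 of them all 11-week libraries were above all of 8 weeks, and in 0 below. The background was 6.81% of genes above and 5.12% below. Hilpda, an inhibitor of triglyceride breakdown on lipid droplets, had 2361, 2107.2 and 1882.4 normalized counts in the 8-week libraries, against 3895.8, 3541.4 and 3495.8 in those of 11 weeks (limma adjusted p = 0.31). The glucose transporter gene Slc2a1 had 2090.9, 3708.7 and 1285.4 and then 3957.4, 3531.3 and 4301.5. It overlapped between the ages. Its 8-week libraries had the same order as those of Vegfa, which with only 3 libraries is a description only. P4ha1, a collagen prolyl hydroxylase subunit, was at 1986 ± 273 and 3012 ± 622 (SD, n = 3; in limma, adjusted p = 0.584). In the list of the oxygen-sensing machinery 11 of 17 were positive, with a median of 0.19. Hif1a, outside the naming rule and chosen after its values were seen, was at 5303 ± 1856 and 5353 ± 1336 normalized counts (SD, n = 3). Egln3, a prolyl hydroxylase that marks hypoxia-inducible factors for decay, had 135.5, 156.5 and 10.2 and then 159.1, 413.3 and 162.2, apart by a small gap. Arnt, a partner of the hypoxia-inducible factors, was at 5149 ± 717 and 4010 ± 1143 (SD, n = 3), with overlap. Ep300, a co-activator of them, was at 8628 ± 1875 and 7011 ± 654 (SD, n = 3), also with overlap.

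The PPAR and glucocorticoid receptor genes with PPAR targets, the other known regulators of Angptl4, went both ways, with 9 of 19 positive and a median of -0.09. Pdk4, a mitochondrial kinase that restrains glucose oxidation, was lower in every 11-week library, at 385.2, 263.2 and 309.2 and then 145.3, 159.3 and 79.8 normalized counts (limma adjusted p = 0.565). Hilpda, also in this list, was higher, and the carnitine carrier gene Slc25a20 was at 1233 ± 324 and 807 ± 275 (SD, n = 3), with overlap. Pparg was higher in every 11-week library, at 208.6, 187 and 158 and then 222.5, 232.9 and 525.7 (limma adjusted p = 0.795). Of this list 2 genes lay apart and higher and 1 apart and lower, beside 6.81% and 5.12% of all genes. In the lipoprotein lipase list 12 of 20 were positive, with a median of 0.03. Lpl itself, the enzyme that ANGPTL4 inhibits, was lower in every 11-week library, at 8516.9, 8183.4 and 9069.7 and then 5966.5, 4466.8 and 7246.3 (limma adjusted p = 0.479). The lipoprotein receptor gene Vldlr was at 35.6 ± 23.1 at 11 weeks, after 2.37 ± 4.1 at 8 weeks (SD, n = 3).

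Among the semaphorins and plexins, ligands and partners of the neuropilins, 7 of 13 were positive, with a median of 0.26. While Nrp1 was higher at 11 weeks, 2 plexin genes were lower in every library, and Sema3a, chosen after its values were seen and at 7.1 normalized counts or less, was higher in every library. Over all genes 5.12% were apart and lower and 6.81% apart and higher. Plxnd1 had 6772.9, 7920.2 and 8825.4 normalized counts and then 5586.8, 4947.7 and 4507.3 (limma adjusted p = 0.352). Plxna4 had 2209.5, 3137.9 and 1437.4 and then 715.4, 1016.1 and 1211.8 (limma adjusted p = 0.31). Plxna1 was at 3367 ± 747 and 2476 ± 357 (SD, n = 3), with overlap. The sum over the list, most of it these 3 plexins, was 13294 to 16516 normalized counts in the 8-week libraries, against 9228 to 9955 in those of 11 weeks.

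Of 28 tested genes of VEGF receptor signalling 11 were positive, with a median of -0.05. The stress kinase gene Mapk14 was at 13842 ± 3448 and 8246 ± 918 normalized counts, Sh2d2a, a T cell adaptor that binds the receptor, at 16.4 ± 23.7 and 173 ± 93.2, and the adaptor gene Shb at 117 ± 148 and 291 ± 162 (SD, n = 3; in limma, adjusted p = 0.307, 0.31 and 0.585). The T cell genes Cd3e and Trac were, like Sh2d2a, higher in every 11-week library. They were at 46.3 ± 62.2 and 231 ± 99.3 and at 9.17 ± 6.88 and 53.4 ± 19.6 (SD, n = 3). Cd3g was lower on average, at 60.7 ± 26.3 and 21.8 ± 27.6 (SD, n = 3), with overlap. Of the 9 T cell genes 6 were positive and 3 negative. The part of T cells in the value of Sh2d2a was not tested. The other PDGF and VEGF family genes had a median of 0.34, with 6 of 8 positive and none apart between the ages. Pdgfc was at 2569 ± 814 and 2942 ± 822 normalized counts, Pdgfra at 30.3 ± 25.6 and 77.5 ± 46.7, and Vegfd at 17.3 ± 19 and 12.1 ± 21 (SD, n = 3). In the angiopoietin family, 6 of 10 tested were positive, with a median of 0.34. Tek, the angiopoietin receptor, was lower in every 11-week library, as given with the endothelial markers. Angpt1 was at 13.1 ± 19.9 and 36.4 ± 17.7 (SD, n = 3), with overlap. Angpt4 had 2.7, 0 and 0 and then 2.8, 47.4 and 11.8, apart by a small gap.

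Other angiogenic factors had 20 of 28 positive, with a median of 0.40. The chemokine gene Cxcl2 had 39490.5, 31671.1 and 31367.6 normalized counts and then 65204.1, 39434.3 and 66190.7, and 11-week replicate 2 lay just below the highest 8-week library. Cxcl12 was lower in every 11-week library, at 429 ± 144 and 143 ± 62.3, and Ccn2 higher, at 4.57 ± 3.96 and 77.8 ± 22.3 (SD, n = 3; in limma, adjusted p = 0.432 and 0.35). Inhibitors of angiogenesis were positive in 13 of 14, with a median of 0.82, and 6 of them lay above their 8-week range in all 3 libraries of 11 weeks and 0 below it, beside 6.81% and 5.12% of all genes. Markers of fibroblasts and pericytes, which also express matrix genes of this list such as Sparc, were positive in 10 of 10 and summed to 974 to 1873 normalized counts in the 8-week libraries, against 3304 to 4053 in those of 11 weeks. Their part in the values of this list was not tested. Pf4, a platelet and macrophage chemokine, was at 11229 ± 1818 and 19582 ± 2888, the matricellular gene Sparc at 858 ± 373 and 2493 ± 1305, and the protease gene Adamts1 at 25.1 ± 29.2 and 148 ± 53.6 (SD, n = 3; in limma, adjusted p = 0.157, 0.255 and 0.423).

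**Figure D5:**
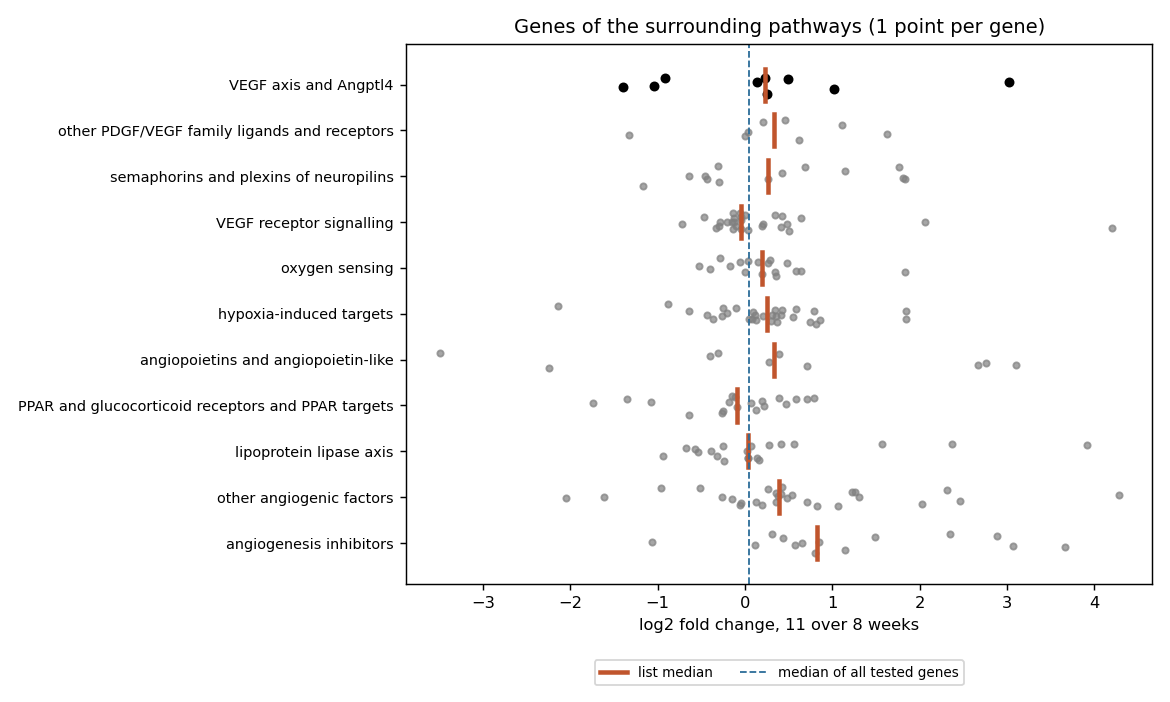
Log2 fold change of 11 over 8 weeks (horizontal axis) of each tested gene in the 10 pathway lists and, in black, of the 9 genes; vertical position within a row is random, red bars are list medians and the dashed line is the median of all tested genes, 0.052. The medians run from -0.09 to 0.82, and no gene shown passed an adjusted p of 0.05.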

How the data were processed

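RNA of macrophages sorted from MMTV-PyMT mammary glands was sequenced in 3 libraries at 8 weeks and 3 at 11 weeks, made from under 100 ng of RNA with Nugen Ovation and Nextera kits per the labels' protocols. STAR 2.4, DESeq2 1.6 and GRCm38 are named without a role, per the submitters' processing notes. The counter and the annotation it used were not given in the sources used here. In the deposited signal columns, reads of a gene stand divided by the library's size factor, to 1 decimal, as the values themselves show: of the nonzero values up to 100 reads, 100% were whole multiples of the library's step within 0.05. The authors' deposited table also holds their log2 fold change, linear fold ratio, p-value and adjusted p-value.

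The 21675 genes whose mean normalized count reached 1 at either age were tested with limma (trend, robust) on log2(value + 1), with age as the only term and Benjamini-Hochberg adjustment over all of them, at 0.05. The edgeR quasi-likelihood test, DESeq2 and limma-voom were run on the recovered reads with the same filter and called 14, 418 and 26 genes. The 9 genes and the 19 pathway and marker lists (283 entries, all matched by symbol or older symbol) were chosen with earlier results of these data known. Cldn5, Ptprb, Cd14, Cd3e, Cd3g, Trac, Ly6g, Camp, Pparg, Sema3a and Hif1a were named after their values were seen. Mmp9 was named because DESeq2 called it. Other pathway genes named are the 3 with the smallest p per list among those whose mean normalized count reached 8. Other markers named are the 3 with the highest mean per list. A gene that this rule names is not reported here. Steps were tested on simulated data. Lengths come from GENCODE M21, promoter windows from RefSeq. Libraries with the same number at both ages were not treated as pairs. The versions were DESeq2 1.42.0, edgeR 4.0.16 and limma 3.58.1 under R 4.3.3, with matplotlib 3.10.9, numpy 2.4.6 and pandas 2.3.3 under Python 3.11.15.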

Additional observations from a re-analysis of the deposited data

How the results depend on the processing

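The limma test called 11 genes. It called 4 with scaling to library totals, 5 with a pseudocount of 8, 45 with the replicate block, 26 with limma-voom and 418 with DESeq2, and 3 to 16 when 1 library was left out (3 without 8-week replicate 1 and 4 without 11-week replicate 1). The cause was not tested. Same-numbered libraries did not deviate together (correlations of -0.023, -0.009 and -0.014 over 10727 genes). With 3 libraries per age, such correlations cannot tell whether same-numbered libraries share more than a number. With the block 0 of the 9 genes passed. No library correlated best with its own number.

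Over 18 alternatives each, the log2 fold changes of Vegfa, Nrp1, Nrp2, Flt1, Pgf and Angptl4 kept their sign, at 0.73 to 1.30, 0.40 to 0.54, 0.14 to 0.42, 2.09 to 3.88, -1.25 to -0.37 and -1.20 to -0.93. Angptl4 passed with DESeq2 alone (-1.03, adjusted p = 0.0178). Kdr turned with edgeR (1.34) and DESeq2 (1.36) and ranged from -3.53 to 0.77 with 1 library left out. Vegfb ranged from -0.18 to 0.62 and Vegfc from -0.17 to 0.77 when 1 library was left out. Of the shares per kb, the difference for Kdr ranged from -0.232 to 0.549 percentage points and that for Vegfc from -0.0635 to 0.0539 with 1 library left out; the other 6 kept their sign. The edgeR count of 14 calls, too, held none of the 9 genes. Depth limits Vegfc, Flt1 and Pgf, whose lowest libraries held 0, 1 and 8 reads.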
